A study of Homo sapiens with 95 samples.

Results

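The GFP Cas9 control was compared with the HcRed control of AALE, an immortalized human bronchial epithelial cell line, in wells given only the vehicle dimethyl sulfoxide (DMSO). The members were the wells whose titles name GFP or HCRED with DMSO and replicates 1 to 3, which made 6 of the 95 wells of the series, 3 for each population. The GFP population carried a plasmid for Cas9 and enhanced GFP without any guide RNA, and was the control for CRISPR knockouts of FAT1 and CDKN2A. The labels list its perturbation type as knockout. The HcRed population carried an empty overexpression vector with the red reporter HcRed, and was the control for overexpression of NRF2, FGFR1, NRG1 and PIK3CA. Neither control has a targeted gene, so no gene in the table can check these labels. Expression was measured by 3′ digital gene expression (3′DGE), in which each molecule is tagged at its 3′ end and counted by its unique molecular identifier (UMI). Each population was 1 line. The paper calls the replicates of a condition biological, and the labels give only a well and a replicate number. The p-values therefore measure the spread between wells of 1 line for each population. The HcRed wells stood at plate positions A1, A2 and A3 and the GFP wells at A4, A5 and A6, and the same plate columns held these populations under every chemical. In a comparison of these populations alone, population and plate column therefore cannot be told apart. Under DMSO the NRF2 wells stood at B1, B2 and B3 and the NRG1 wells at B4, B5 and B6. An effect of plate column was not tested.

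Bronchial epithelium is renewed by basal cells, which sit on a laminin-rich basement membrane and carry keratin 5 and the transcription factor p63. Under injury such cells can take on a squamous program, with small proline-rich proteins and other parts of the cornified envelope. They also defend the surface with the calcium-binding S100 proteins S100A8 and S100A9 (together calprotectin, which withholds metals from microbes) and with protease inhibitors that protect tissue from neutrophil elastase. TIMP1 is a secreted inhibitor of matrix metalloproteinases.

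Total UMI counts ran from 1168645 to 1364142 in the 6 wells, and 48.65% to 51.78% of the listed genes had at least 1 count. Levels are counts scaled to 1e6 per well with TMM factors (CPM), where TMM is a scaling that discounts the most changed genes. The basal markers KRT5, KRT14, KRT17, TP63, ITGB4, ITGA6 and LAMB3 and the epithelial markers EPCAM, CDH1, KRT8, KRT18 and KRT19 had counts in all 6 wells. Markers of other cell types were low. No ciliated marker had more than 0.775 CPM on average, and the secretory markers SCGB1A1, SCGB3A1, BPIFA1 and MUC5B, the surfactant genes SFTPC and SFTPD and the endothelial markers VWF and CDH5 were at 0 in every well. The 14 leukocyte markers summed to 11.9 to 15.1 CPM in GFP and 20.7 to 24.4 CPM in HcRed. CD68 gave most of this, with 11.5 CPM on average, while CD3E and ITGAM were at 0. The part of this difference in the results was not tested. In bulk wells, fewer cells of a kind and less RNA in each cannot be told apart.

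Of 11134 genes tested, 661 (5.94%) were higher and 541 (4.86%) lower in GFP at an adjusted p of 0.05, 1202 (10.8%) in all. The counts of list members below are to be read beside these shares. Changes of at least 1 on the log2 scale were more often decreases, with 97 genes higher and 174 lower. The 3 GFP wells lay wholly above or below the 3 HcRed wells for 2879 genes (25.9%), and 1161 of these (10.4% of genes tested) were also called. The median over all genes was -0.02. When counts were scaled by library totals alone, 1181 genes were called, of which 43.1% were higher in GFP against 55.0% with TMM factors, and the median over all genes was -0.07.

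S100A8, an abundant gene of epithelial defence in HcRed, was far lower in GFP. It lies at chr1:153362508-153363549 (hg19, minus strand), in the S100 gene cluster of chromosome 1. Its level was 708, 651 and 638 CPM in the HcRed wells and 41.7, 48.9 and 55.3 CPM in the GFP wells. Every GFP well was far below every HcRed well, a difference of 13.7-fold (log2 fold change -3.76, SE 0.12, limma-voom adjusted p = 3.92e-28). Its partner S100A9, the other subunit of calprotectin, was at 23.3, 24.1 and 22.9 CPM in the HcRed wells and 0.852, 0.829 and 0.719 CPM in the GFP wells. The GFP wells held 1 count each, 3 in all, and the ratio of HcRed to GFP was 30.5 (exact 95% counting interval 10.1 to 151), a range that covers counting error only. S100A7, the antimicrobial psoriasin, had 30 counts in HcRed and 2 in GFP, a ratio of 14.8 (exact 95% counting interval 3.75 to 127). S100P fell as well, from 10.8, 15.2 and 7.64 CPM in HcRed to 1.70, 1.66 and 2.87 CPM in GFP (log2 fold change -2.19, SE 0.52, limma-voom adjusted p = 0.00257).

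The S100 family as a whole was divided. Of its 13 tested members, 3 were higher and 7 lower in GFP, with a median of -0.64. S100A6, a growth-associated member with a high level, fell from 7660.2, 6765 and 7251 CPM in HcRed to 4514, 4545 and 4675 CPM in GFP, a change of -0.64 (SE 0.02) on the log2 scale. S100A14 fell by a similar amount (-0.82). S100A11, which binds annexins at the membrane, moved the other way, from 1708, 1625 and 1773 CPM in HcRed to 2349.7, 2478 and 2396 CPM in GFP (log2 fold change 0.51, SE 0.03, limma-voom adjusted p = 1.02e-17). S100A2, the most abundant member that was not called, was at 5591, 4746 and 5141 CPM in the HcRed wells and 5248, 5554 and 5152 CPM in the GFP wells. Its wells overlapped (log2 fold change 0.06, SE 0.03, limma-voom adjusted p = 0.164). Members of the family thus lay on both sides of 0, and DESeq2 called 4 of them lower.

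The secreted protease inhibitors PI3 and SLPI were low in GFP. PI3, which encodes elafin, an inhibitor of neutrophil elastase, was at 219, 185 and 153 CPM in the HcRed wells and 21.3, 10.8 and 14.4 CPM in the GFP wells (log2 fold change -3.59, SE 0.23, limma-voom adjusted p = 1.99e-17). SLPI, the secretory leukocyte protease inhibitor, was at 563, 465 and 499 CPM in the HcRed wells and 67.3, 67.2 and 76.2 CPM in the GFP wells, 7.25-fold lower in GFP (log2 fold change -2.83, SE 0.11, limma-voom adjusted p = 2.4e-25). For both genes the highest GFP well was several-fold below the lowest HcRed well. SAA1, an acute-phase protein, fell from 31.7, 28.3 and 28.2 CPM in HcRed to 6.82, 7.46 and 11.5 CPM in GFP (log2 fold change -1.73, SE 0.28, limma-voom adjusted p = 7e-06). These were the 3 called members among 11 tested airway defence genes, none of which was higher in GFP, and the median of the list was -0.68. PI3 and SLPI lie close together on 20q, an arm whose genes were lower in GFP as a group, as described with the chromosome arms. The median log2 fold change of that arm was -0.41, a far smaller fall than that of either gene. Leaving out the genes of arms 16p, 4q and 20q left 1 called member, SAA1. AGR2, a disulfide isomerase that helps fold mucins, fell from 41.7, 28.9 and 41.2 CPM in HcRed to 14.5, 13.3 and 12.9 CPM in GFP (log2 fold change -1.40, SE 0.23, limma-voom adjusted p = 1.39e-05). It was the 1 called gene of 10 tested mucin and surface genes (10%, beside 10.8% of all genes tested).

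**Figure D1:**
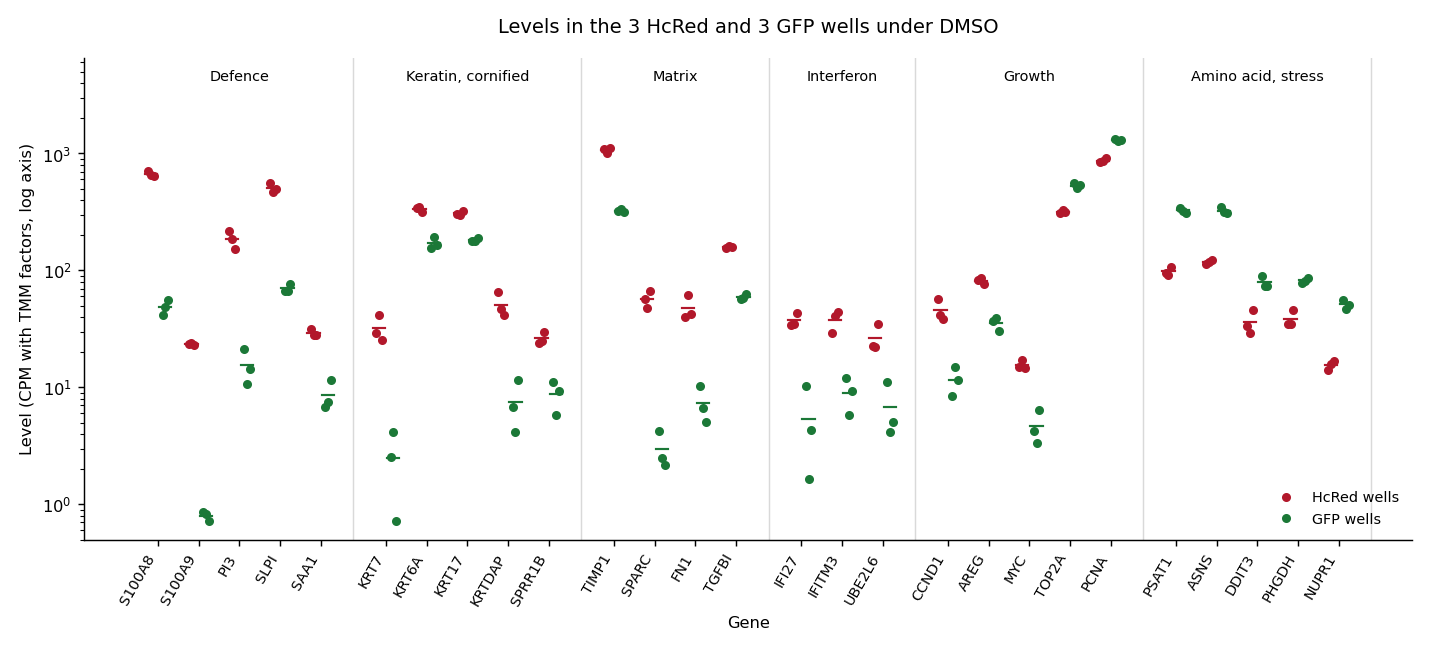
Levels of 27 genes in each of the 3 HcRed wells (red) and 3 GFP wells (green) under DMSO, in CPM with TMM factors on a log axis, where dots are wells and bars are means of 3. S100A8 sits between 638 and 708 CPM in HcRed and at or below 55.3 CPM in GFP, while the amino acid genes at the right are higher in GFP.

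Keratins differed by member. Of 14 tested, 5 were lower and 0 higher in GFP, with a median of -0.48 and 12 of 14 log2 fold changes below 0. KRT7, a keratin of simple epithelium, was at 29.2, 41.4 and 25.2 CPM in the HcRed wells and 2.56, 4.15 and 0.719 CPM in the GFP wells. Each GFP well held 5 counts or fewer (log2 fold change -3.75, SE 0.52, limma-voom adjusted p = 3.07e-07). KRT6A, a keratin of injury and rapid growth, fell from 345, 352 and 314 CPM in HcRed to 157, 192 and 164 CPM in GFP (log2 fold change -0.98, SE 0.08, limma-voom adjusted p = 1.07e-12). KRT17, its partner in activated epithelium, fell from 306, 296 and 319.9 CPM in HcRed to 179.8, 177 and 189.7 CPM in GFP, and KRT19 fell from 350.0, 353 and 350.5 CPM in HcRed to 246, 228 and 237 CPM in GFP, with log2 fold changes of -0.75 (SE 0.08) and -0.56 (SE 0.07). KRT5 was at 337, 323 and 310.0 CPM in the HcRed wells and 231, 322 and 233 CPM in the GFP wells. Here GFP well 2 lay among the HcRed wells, and the call (log2 fold change -0.32, SE 0.08, limma-voom adjusted p = 0.00771) was lost without GFP well 1 (adjusted p = 0.0807) or without GFP well 3 (adjusted p = 0.113). It was also lost with DESeq2 (adjusted p = 0.232) and in a single fit over all 24 DMSO wells (adjusted p = 0.0723).

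Squamous and cornified envelope genes split between loss and gain. Of 25 tested members, 6 were lower and 4 higher in GFP (40%, beside 10.8% of all genes tested), with a median of -0.54. The median was -0.60 under cigarette smoke condensate and -0.13 under the nitrosamine NNK, where 6 and 5 of the called members were called again in the same direction. KRTDAP, a secreted protein of differentiating keratinocytes, was at 65.0, 46.9 and 41.2 CPM in the HcRed wells and 6.82, 4.15 and 11.5 CPM in the GFP wells (log2 fold change -2.74, SE 0.32, limma-voom adjusted p = 4.15e-09). SPRR1B, a crosslinked precursor of the cornified envelope, fell from 24.2, 24.8 and 29.8 CPM in HcRed to 11.1, 5.81 and 9.34 CPM in GFP (log2 fold change -1.58, SE 0.28, limma-voom adjusted p = 5.33e-05). SPRR3 had 27 counts in HcRed and 1 in GFP, a ratio of 26.6 (exact 95% counting interval 4.38 to 1088). PPL, the plakin that anchors keratin to the envelope, fell by 1.31 on the log2 scale. In contrast CSTA, the protease inhibitor cystatin A of the envelope, rose from 632, 618 and 661 CPM in HcRed to 829.8, 811 and 763 CPM in GFP (log2 fold change 0.33, SE 0.05, limma-voom adjusted p = 2.63e-06). SCEL, the envelope precursor sciellin, rose from 44.2, 45.5 and 41.2 CPM in HcRed to 67.3, 61.4 and 69.0 CPM in GFP (log2 fold change 0.59, SE 0.15, limma-voom adjusted p = 0.00397). Without HcRed well 1, 2 members were called higher, and DESeq2 called 2 higher and 3 lower.

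Of 38 tested junction genes, 2 were higher and 1 lower in GFP (7.89%, beside 10.8% of all genes tested), with a median of -0.04 beside -0.02 over all genes. F11R, the tight junction adhesion molecule A, rose from 291, 241 and 231 CPM in HcRed to 361, 325 and 374 CPM in GFP (log2 fold change 0.49, SE 0.08, limma-voom adjusted p = 7.3e-06). SPINT2, an inhibitor of membrane serine proteases, rose from 75.0, 86.8 and 61.8 CPM in HcRed to 127, 100.4 and 98.4 CPM in GFP (log2 fold change 0.54, SE 0.13, limma-voom adjusted p = 0.00316). Its call was lost without HcRed well 3 (adjusted p = 0.0504). CTNNB1, which encodes beta-catenin, fell from 134, 118 and 117 CPM in HcRed to 90.3, 87.1 and 93.4 CPM in GFP (log2 fold change -0.43, SE 0.11, limma-voom adjusted p = 0.00596). Leaving out 1 well changed these counts: 4 junction genes were higher without GFP well 3, and 2 were lower without HcRed well 3, with edgeR or with library totals alone. Among 27 integrins and matrix receptors, 1 was lower and 0 higher (3.70%).

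Basal cell genes were called in both directions, 3 higher and 3 lower of 19 tested. FGFBP1, a carrier that releases fibroblast growth factors from the matrix, rose from 277, 221 and 255 CPM in HcRed to 385, 443 and 381 CPM in GFP (log2 fold change 0.69, SE 0.08, limma-voom adjusted p = 1.17e-09). COL17A1, the collagen of hemidesmosomes, rose from 39.2, 36.5 and 40.5 CPM in HcRed to 64.7, 68.0 and 51.0 CPM in GFP (log2 fold change 0.64, SE 0.16, limma-voom adjusted p = 0.00346). The lower count was 1 with DESeq2.

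TIMP1 had the largest change among the called genes of matrix turnover. It lies at chrX:47441807-47446188 (hg19, plus strand). Its level was 1098, 1005 and 1116 CPM in the HcRed wells and 322, 333 and 314 CPM in the GFP wells, with no overlap between the populations. The means differed by 3.32-fold (log2 fold change -1.72, SE 0.06, limma-voom adjusted p = 3.02e-27). CTSC, the cathepsin that activates granule serine proteases, fell from 277, 248 and 242 CPM in HcRed to 138, 143 and 149 CPM in GFP (log2 fold change -0.82, SE 0.09, limma-voom adjusted p = 8.05e-10). Some intracellular serpins rose, among them SERPINB1, an inhibitor of neutrophil proteases, from 73.3, 60.7 and 51.9 CPM in HcRed to 88.6, 105 and 106 CPM in GFP and SERPINB7 from 19.2, 17.2 and 13.7 CPM in HcRed to 28.1, 34.8 and 33.1 CPM in GFP. Their log2 fold changes were 0.71 (SE 0.13) and 0.94 (SE 0.22), and the 39 tested proteases and inhibitors held 5 higher and 3 lower genes. Leaving out a well moved these counts to 3 higher without HcRed well 2, and to 3 higher and 5 lower without GFP well 3. With edgeR or with library totals alone, 6 were called lower.

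Of 19 tested mesenchymal genes, 5 were lower in GFP, 0 higher and 14 not called, with a median of -0.38. SPARC, a collagen-binding matrix protein, was at 57.5, 47.6 and 66.4 CPM in the HcRed wells and 4.26, 2.49 and 2.16 CPM in the GFP wells. The GFP wells were all below 5 CPM, 19.3-fold below HcRed (log2 fold change -4.15, SE 0.42, limma-voom adjusted p = 1.35e-10). FN1, which encodes fibronectin, was at 40.0, 61.3 and 42.8 CPM in the HcRed wells and 10.2, 6.64 and 5.03 CPM in the GFP wells (log2 fold change -2.72, SE 0.31, limma-voom adjusted p = 2.96e-09). TGFBI, a matrix protein induced by TGF-beta, fell from 157, 163 and 158 CPM in HcRed to 57.1, 58.1 and 62.5 CPM in GFP (log2 fold change -1.42, SE 0.12, limma-voom adjusted p = 3.7e-13), and TPM2, an actin-binding tropomyosin, fell from 20.8, 16.5 and 25.2 CPM in HcRed to 2.56, 4.98 and 0.719 CPM in GFP (log2 fold change -3.06, SE 0.50, limma-voom adjusted p = 9.13e-06). Without GFP well 1, 1 mesenchymal gene was called higher. Of 32 tested laminins, collagens and matrix proteins, 7 were lower, 2 higher and 23 not called. THBS1, the adhesive matrix protein thrombospondin 1, fell from 21.7, 30.3 and 23.7 CPM in HcRed to 5.96, 14.1 and 10.8 CPM in GFP (log2 fold change -1.32, SE 0.28, limma-voom adjusted p = 0.000718). MFAP5, a protein of elastic microfibrils, went the other way, from 53.3, 37.9 and 42.0 CPM in HcRed to 90.3, 94.5 and 96.3 CPM in GFP (log2 fold change 1.10, SE 0.14, limma-voom adjusted p = 5.97e-08). Galectin 1, encoded by LGALS1 and often abundant in mesenchymal cells, fell from 375, 389 and 364 CPM in HcRed to 174, 147 and 152 CPM in GFP (log2 fold change -1.26, SE 0.08, limma-voom adjusted p = 1.13e-16).

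**Figure D2:**
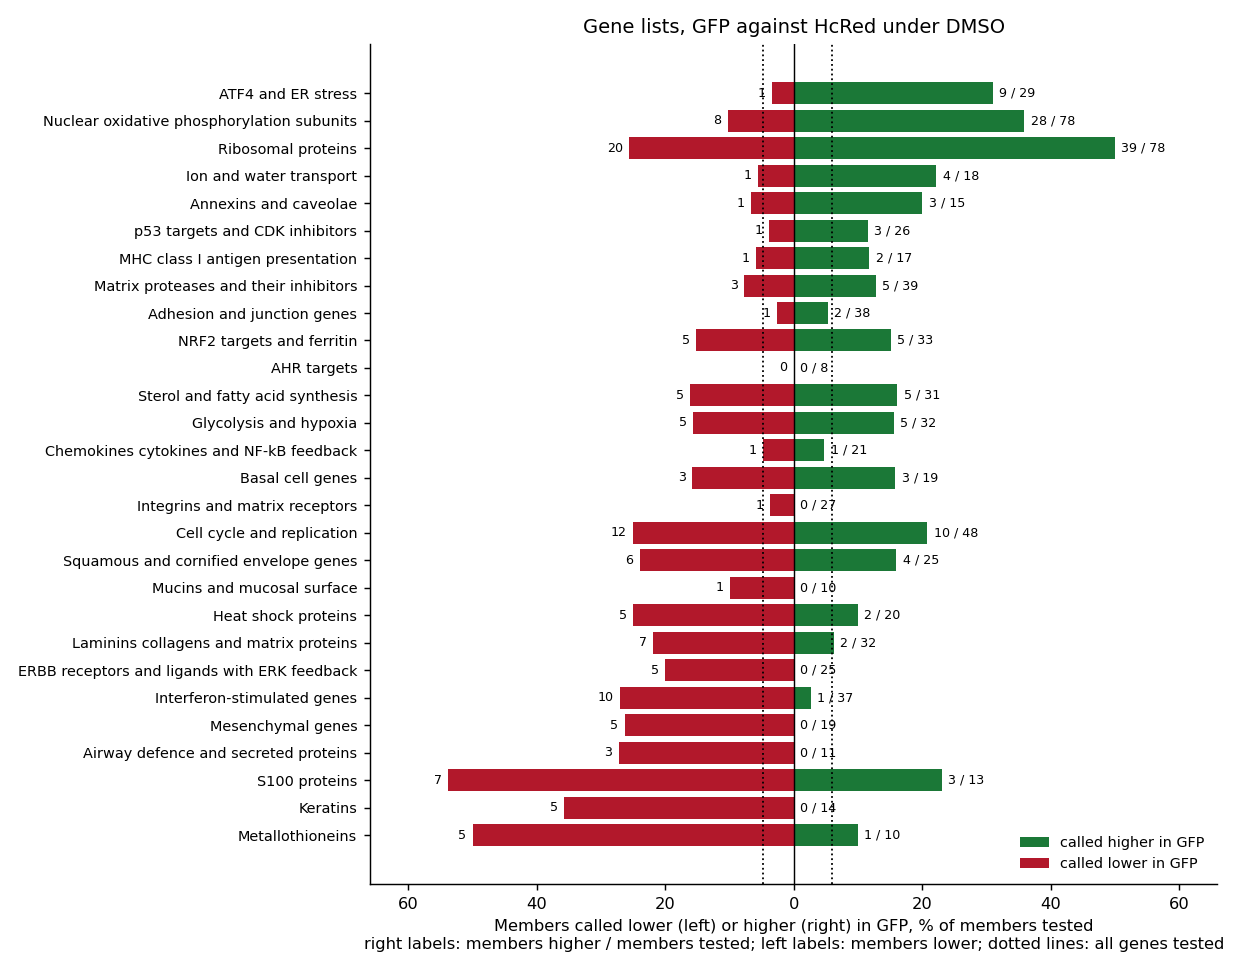
Members of 28 gene lists called lower (red, left) or higher (green, right) in GFP, as a percent of the members tested, with dotted lines at the shares over all genes tested (5.94% higher and 4.86% lower). The keratin, airway defence and mesenchymal lists have called members on the lower side only, and the oxidative phosphorylation list has 28 higher and 8 lower of 78.

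Interferon-stimulated genes were lower in GFP for 10 members and higher for 1 of 37 tested, with a median of -0.76. They encode antiviral and signalling proteins that cells make in response to interferon. IFI27, a mitochondrial and nuclear membrane protein strongly induced by interferon, was at 34.2, 35.2 and 43.5 CPM in the HcRed wells and 10.2, 1.66 and 4.31 CPM in the GFP wells. The GFP wells varied several-fold among themselves and stayed below every HcRed well (log2 fold change -3.02, SE 0.38, limma-voom adjusted p = 3.98e-08). IFITM3, which blocks virus entry at endosomes, fell from 29.2, 40.7 and 44.3 CPM in HcRed to 11.9, 5.81 and 9.34 CPM in GFP (log2 fold change -2.07, SE 0.28, limma-voom adjusted p = 2.67e-07). UBE2L6, the conjugating enzyme for the ubiquitin-like protein ISG15, fell from 22.5, 22.1 and 35.1 CPM in HcRed to 11.1, 4.15 and 5.03 CPM in GFP (log2 fold change -2.02, SE 0.34, limma-voom adjusted p = 1.37e-05). DDX60, a helicase of RNA sensing, fell from 11.7, 13.8 and 18.3 CPM in HcRed to 0.852, 1.66 and 7.19 CPM in GFP and LGALS3BP, a secreted galectin-binding glycoprotein, from 12.5, 19.3 and 17.6 CPM in HcRed to 6.82, 4.98 and 5.03 CPM in GFP, with log2 fold changes of -2.37 (SE 0.51) and -1.50 (SE 0.35). ISG15 itself had low levels of 9.17, 17.9 and 12.2 CPM in the HcRed wells and 4.26, 7.46 and 5.03 CPM in the GFP wells. Its call (log2 fold change -1.18, SE 0.37, limma-voom adjusted p = 0.0288) was lost without HcRed well 2 (adjusted p = 0.176), GFP well 1 (adjusted p = 0.110) or GFP well 3 (adjusted p = 0.112). PLSCR1, a phospholipid scramblase, was the exception and rose from 71.7, 68.9 and 60.3 CPM in HcRed to 116, 102 and 90.5 CPM in GFP (log2 fold change 0.61, SE 0.13, limma-voom adjusted p = 0.000491). The count of lower members was 6 without GFP well 1, 5 without GFP well 3 and 4 with DESeq2. IFI27, IFITM3 and UBE2L6 kept the call in every alternative that gave them an adjusted p. The count of higher members was 2 without HcRed well 1. Among 21 tested chemokine, cytokine and NF-kB feedback genes, 1 was higher and 1 lower (9.52%, beside 10.8% of all genes tested). The lower one was IL18, an epithelial cytokine of the IL-1 family (log2 fold change -0.70, SE 0.10, limma-voom adjusted p = 1.78e-06). Of 17 tested genes of MHC class I presentation, 2 were higher and 1 lower (17.6%), and 1 was higher without GFP well 1.

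Growth control genes of the ERBB receptor and ERK pathway were lower for 5 and higher for 0 of 25 tested, with a median of -0.61. AREG, the EGFR ligand amphiregulin, was at 82.5, 85.5 and 77.1 CPM in the HcRed wells and 36.6, 39.0 and 30.2 CPM in the GFP wells (log2 fold change -1.22, SE 0.15, limma-voom adjusted p = 3.96e-08). EGFR, its receptor, was at 33.3, 42.7 and 25.2 CPM in the HcRed wells and 18.7, 19.1 and 18.7 CPM in the GFP wells (log2 fold change -0.80, SE 0.22, limma-voom adjusted p = 0.0114). The call of EGFR was lost with DESeq2 (adjusted p = 0.0511) and without HcRed well 2 (adjusted p = 0.136). DUSP1, a phosphatase that acts on MAP kinases, fell from 23.3, 24.1 and 19.1 CPM in HcRed to 7.67, 7.46 and 4.31 CPM in GFP (log2 fold change -1.77, SE 0.32, limma-voom adjusted p = 5.85e-05), and MYC fell from 15.0, 17.2 and 14.5 CPM in HcRed to 4.26, 3.32 and 6.47 CPM in GFP (log2 fold change -1.67, SE 0.37, limma-voom adjusted p = 0.00103). DESeq2 called 2 of the 25.

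The D-type cyclins CCND1 and CCND2, which drive entry into the cell cycle downstream of growth signals, were low in GFP. The third D-type cyclin, CCND3, was not called in either direction. CCND1 was at 57.5, 41.4 and 38.2 CPM in the HcRed wells and 8.52, 14.9 and 11.5 CPM in the GFP wells (log2 fold change -1.93, SE 0.25, limma-voom adjusted p = 9.12e-08). CCND2 had 76 counts in HcRed and 1 in GFP, a ratio of 74.8 (exact 95% counting interval 13.03 to 2993). Genes of replication and mitosis were called in both directions. Of 48 tested cell cycle genes, 10 were higher and 12 lower, with a median of -0.03, and the lower genes included CCNA2, MKI67 and CDK1 beside CCND1 and CCND2. TOP2A, the topoisomerase of dividing cells, rose from 310.0, 327 and 318 CPM in HcRed to 556, 505 and 535 CPM in GFP (log2 fold change 0.74, SE 0.06, limma-voom adjusted p = 1.4e-12). PCNA, the replication clamp, rose from 842, 859 and 908 CPM in HcRed to 1324, 1282 and 1311 CPM in GFP (log2 fold change 0.59, SE 0.04, limma-voom adjusted p = 3.04e-15), and STMN1, a microtubule regulator, from 692, 720.3 and 779.5 CPM in HcRed to 1085, 995 and 1068 CPM in GFP (log2 fold change 0.52, SE 0.05, limma-voom adjusted p = 1.17e-11). Of the 12 lower genes, 5 lay on arms 16p, 4q and 20q. DESeq2 called 6 lower. CDKN2A, which encodes the inhibitors p16 and p14ARF, was higher in GFP, at 36.6 ± 2.27 CPM (SD, n = 3) against 21.4 ± 1.21 CPM (SD, n = 3) in HcRed (log2 fold change 0.76, SE 0.19, limma-voom adjusted p = 0.00552). It was not called under the chemicals, where its log2 fold changes were -0.06, 0.02 and 0.22 under cigarette smoke condensate, NNK and benzo(a)pyrene. It was 1 of 3 higher members of 26 tested p53 targets and CDK inhibitors, of which 1 was lower (15.4% called, beside 10.8% of all genes tested). Without HcRed well 3, 1 of these was called higher, and without HcRed well 2, 2 were called lower.

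PSAT1, ASNS, PHGDH and MTHFD2, which make amino acids or use serine carbon under the transcription factor ATF4, were higher in GFP. ATF4 is translated when amino acids run short or the endoplasmic reticulum is stressed, and turns on enzymes for serine and asparagine. Of 29 tested genes of ATF4 and endoplasmic reticulum stress, 9 were higher, 1 lower and 19 not called, with a median of 0.52. PSAT1, the transaminase of serine synthesis, was at 95.8, 91.7 and 108 CPM in the HcRed wells and 344, 322 and 313 CPM in the GFP wells. Every GFP well was far above every HcRed well (log2 fold change 1.73, SE 0.09, limma-voom adjusted p = 1.39e-19). ASNS, asparagine synthetase, was at 113, 119 and 123 CPM in the HcRed wells and 347, 314 and 307 CPM in the GFP wells (log2 fold change 1.44, SE 0.09, limma-voom adjusted p = 1.32e-17). PHGDH, the first enzyme of serine synthesis, rose from 35.0, 35.2 and 45.8 CPM in HcRed to 78.4, 81.3 and 86.9 CPM in GFP (log2 fold change 1.10, SE 0.15, limma-voom adjusted p = 2.22e-07). MTHFD2, the mitochondrial folate enzyme that uses serine carbon, rose from 343, 336 and 364 CPM in HcRed to 611, 561 and 560.4 CPM in GFP (log2 fold change 0.73, SE 0.06, limma-voom adjusted p = 5.71e-13). DDIT3, the stress factor CHOP, rose from 33.3, 28.9 and 45.8 CPM in HcRed to 89.5, 73.8 and 73.3 CPM in GFP (log2 fold change 1.14, SE 0.16, limma-voom adjusted p = 4.15e-07). NUPR1, a stress-induced nuclear protein on 16p, rose from 14.2, 15.9 and 16.8 CPM in HcRed to 56.2, 46.4 and 51.0 CPM in GFP (log2 fold change 1.69, SE 0.21, limma-voom adjusted p = 2.09e-08) and was the 1 gene called higher on that arm. SLC7A5, the transporter of large neutral amino acids and also an ATF4 target, was the 1 member called lower and fell from 108, 103 and 80.9 CPM in HcRed to 50.3, 78.8 and 52.5 CPM in GFP (log2 fold change -0.70, SE 0.14, limma-voom adjusted p = 0.000438). Without GFP well 2, 2 members were called lower.

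Other stress and metabolic groups were mixed. Of 10 tested metallothioneins, small metal-binding proteins, 5 were lower and 1 higher. MT2A, the most abundant, was at 22161, 20184 and 22055 CPM in the HcRed wells and 14969, 16779 and 14769 CPM in the GFP wells (log2 fold change -0.46, SE 0.02, limma-voom adjusted p = 3.4e-24). MT1X fell by 0.18 on the log2 scale, a call lost without HcRed well 3 (adjusted p = 0.111) or GFP well 2 (adjusted p = 0.104), with DESeq2 and in the fit over 24 wells. The number of lower metallothioneins was 3 without HcRed well 1, GFP well 2 or GFP well 3, 2 without HcRed well 3 and 1 with DESeq2. NRF2 targets and ferritin held 5 higher and 5 lower of 33, and 2 were lower without HcRed well 3 or GFP well 1 and 3 without GFP well 3. None of 8 tested targets of the aryl hydrocarbon receptor was called, although 1 was lower without HcRed well 2.

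In central metabolism, GAPDH rose from 2668, 2536 and 2721 CPM in HcRed to 3296, 3116 and 3146 CPM in GFP (log2 fold change 0.27, SE 0.03, limma-voom adjusted p = 1.14e-11), while LDHA, which makes lactate, fell from 1500.0, 1349 and 1454 CPM in HcRed to 1047, 1086 and 1072 CPM in GFP (log2 fold change -0.42, SE 0.04, limma-voom adjusted p = 4.02e-11). The 32 tested genes of glycolysis and hypoxia held 5 higher and 5 lower, and 3 were higher without HcRed well 3 or GFP well 3. ALDOA, a glycolytic aldolase on 16p, fell (-0.57). FDFT1, squalene synthase of the sterol pathway, rose from 368, 338 and 321 CPM in HcRed to 538, 567 and 563 CPM in GFP (log2 fold change 0.71, SE 0.06, limma-voom adjusted p = 4.03e-12). The 31 tested genes of sterol and fatty acid synthesis held 5 higher and 5 lower, of which 2 were lower without HcRed well 2 and 3 without GFP well 1 or GFP well 3. HSPA8, the constitutive HSC70 chaperone, fell from 1822, 1711 and 1846 CPM in HcRed to 1378, 1357 and 1372 CPM in GFP (log2 fold change -0.38, SE 0.04, limma-voom adjusted p = 6.15e-12). Of 20 tested heat shock proteins 2 were higher and 5 lower, and 3 were lower without GFP well 3.

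Subunits of the respiratory chain encoded in the nucleus were higher for 28 and lower for 8 of 78 tested (46.2%, beside 10.8% of all genes tested), with a median of 0.13. The shift did not hold in all other wells. The median was 0.07 under cigarette smoke condensate and -0.03 under NNK, where 27 and 14 of the called members were called again in the same direction. The lower count was 4 in the fit over 24 wells and 5 with arms 16p, 4q and 20q left out. NDUFA4 rose from 3253, 3011 and 3164 CPM in HcRed to 4423, 4081 and 4241 CPM in GFP and COX4I1, a subunit of cytochrome oxidase, from 1064, 1095 and 1074 CPM in HcRed to 1471, 1368 and 1377 CPM in GFP. Their log2 fold changes were small and precise, 0.44 (SE 0.02) and 0.38 (SE 0.04). NDUFB10, a subunit of complex I on 16p, fell from 77.5, 83.4 and 88.6 CPM in HcRed to 50.3, 49.8 and 48.9 CPM in GFP (log2 fold change -0.74, SE 0.14, limma-voom adjusted p = 8.32e-05). Ribosomal proteins were higher for 39 and lower for 20 of 78, where high counts make small changes detectable. Their median was 0.08 under DMSO, -0.01 under cigarette smoke condensate and 0.02 under NNK. Under these chemicals 44 and 35 of the called members were called again in the same direction. RPS18 rose by 0.50 (SE 0.01) on the log2 scale. RPS15A and RPS2, both on 16p, fell (-0.59 and -0.80). In the fit over 24 wells, 24 ribosomal proteins were higher and 9 lower. RPL22L1, a paralog of the ribosomal protein RPL22 that lies outside that list, had the strongest fall of the ribosomal family members named here. It was at 638, 527 and 549.7 CPM in the HcRed wells and 131, 137 and 124 CPM in the GFP wells, 4.38-fold lower in GFP (log2 fold change -2.12, SE 0.09, limma-voom adjusted p = 3.78e-24).

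Several membrane genes rose in GFP. ANXA1, an anti-inflammatory annexin, was at 1353, 1383 and 1449.9 CPM in the HcRed wells and 2119, 2051 and 2237 CPM in the GFP wells (log2 fold change 0.62, SE 0.04, limma-voom adjusted p = 2.28e-18), and ANXA2, the plasma membrane partner of S100A10, rose by 0.36 (SE 0.02) on the log2 scale. ANXA5 on 4q fell (-0.31 (SE 0.04)). The 15 tested genes of annexins and caveolae held 3 higher and 1 lower. FXYD3 and FXYD5, regulators of the sodium pump, rose by 0.55 (SE 0.04) and 0.92 (SE 0.18), and 4 of 18 tested ion transport genes were higher and 1 lower. ARHGDIB, a GDP dissociation inhibitor, was at 80.0, 97.9 and 102 CPM in the HcRed wells and 227, 227 and 231 CPM in the GFP wells (log2 fold change 1.30, SE 0.10, limma-voom adjusted p = 4.31e-14). The pseudogene transcript SFTA1P was at 27.5, 22.7 and 19.9 CPM in the HcRed wells and 90.3, 109 and 97.0 CPM in the GFP wells, 4.23-fold higher in GFP (log2 fold change 2.08, SE 0.17, limma-voom adjusted p = 2.55e-13). CDH13, a cadherin anchored by a lipid, rose from 15.0, 16.5 and 15.3 CPM in HcRed to 36.6, 31.5 and 40.2 CPM in GFP (log2 fold change 1.19, SE 0.22, limma-voom adjusted p = 6.61e-05). Genes of unrelated roles also fell steeply. UPK1B, a tetraspanin of urothelial plaques, was at 45.0, 41.4 and 48.1 CPM in the HcRed wells and 4.26, 4.15 and 2.16 CPM in the GFP wells (log2 fold change -3.60, SE 0.38, limma-voom adjusted p = 5.32e-10). BBS9, a subunit of the BBSome of cilia, was at 51.7, 52.4 and 48.1 CPM in the HcRed wells and 6.82, 4.98 and 5.75 CPM in the GFP wells (log2 fold change -3.04, SE 0.30, limma-voom adjusted p = 8.06e-11). CDA, cytidine deaminase, was at 42.5, 53.1 and 48.9 CPM in the HcRed wells and 10.2, 7.46 and 10.8 CPM in the GFP wells (log2 fold change -2.30, SE 0.26, limma-voom adjusted p = 1.86e-09).

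The 6 wells were then set beside the DMSO wells of the other 6 populations. The 3 GFP wells lay above all 21 other DMSO wells for 135 of the 1202 called genes and below them for 119, together 21.1%, against 2.90% of all genes tested. The 3 HcRed wells lay above all others for 5 called genes and below for 0, together 0.416%. Over all genes tested they lay above for 8 and below for 6, together 0.126%. Genes were called in a contrast that uses these GFP wells, so the shares are a description.

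Genes at which GFP stood alone included PSAT1 and ASNS of amino acid synthesis. PSAT1 ranged from 313 to 344 CPM in GFP, and the next highest population was NRG1 with 140.1 to 171 CPM. ASNS ranged from 307 to 347 CPM in GFP and 146 to 157 CPM in NRG1. SFTA1P ranged from 90.3 to 109 CPM in GFP and 44.9 to 67.4 CPM in the CDKN2A knockout. TOP2A was also highest in GFP, at 505 to 556 CPM, and the next highest population was the FAT1 knockout with 322 to 409 CPM. The CDKN2A knockout was the lowest, at 255 to 280.2 CPM. IFITM3 and UBE2L6 were lowest in GFP, at 5.81 to 11.9 and 4.15 to 11.1 CPM, while HcRed had 29.2 to 44.3 and 22.1 to 35.1 CPM. For UBE2L6 the CDKN2A knockout had the next lowest mean, with 19.4 to 21.9 CPM, and the lowest PIK3CA well was at 15.9 CPM. IFI27 varied between populations in its own way, with 1.66 to 10.2 CPM in GFP, 6.47 to 9.76 CPM in NRF2 and 57.8 to 66.9 CPM in NRG1, so that the GFP and NRF2 wells overlapped.

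The 3 populations whose type is listed as knockout, GFP, FAT1 and CDKN2A, shared some of the low genes. All 9 of their wells lay below all 15 wells of the overexpression type for 27 called genes and above them for 8, 2.91% of called genes against 0.359% of genes tested. Such genes have GFP and HcRed wells that do not overlap, as called genes mostly do, so these shares too are a description. TIMP1 was one. It ranged from 314 to 333 CPM in GFP, 369 to 422 CPM in FAT1 and 317 to 443 CPM in CDKN2A, while the lowest overexpression population, FGFR1, had 818 to 1043 CPM. SPARC was at 2.16 to 4.26, 1.67 to 3.90 and 1.25 to 5.46 CPM in GFP, FAT1 and CDKN2A, and at 25.5 to 33.6 CPM in NRG1, the lowest of the others. KRT7, SLPI, TGFBI, TPM2, UPK1B, BBS9 and CDA had the same order. The low levels of these genes were thus found in all 3 populations of the knockout type.

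S100A8, PI3 and KRTDAP had another order, in which HcRed and NRF2 were the highest. These populations stood in the same plate columns under DMSO, and no other population did. This order therefore cannot be told apart from plate column. S100A8 ranged from 638 to 708 CPM in HcRed and 899 to 976 CPM in NRF2, and no well of the other 6 populations exceeded 120.2 CPM. The GFP range of 41.7 to 55.3 CPM lay near those of FGFR1 (42.9 to 60.9) and PIK3CA (39.7 to 53.7), with which it overlapped. PI3 was at 153 to 219 CPM in HcRed and 197 to 254 CPM in NRF2, against 36.9 to 41.8 CPM in PIK3CA, the next highest. KRTDAP was at 41.2 to 65.0 and 54.3 to 90.6 CPM in HcRed and NRF2. In GFP its 4.15 to 11.5 CPM was above every well of the remaining 5 populations.

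**Figure D3:**
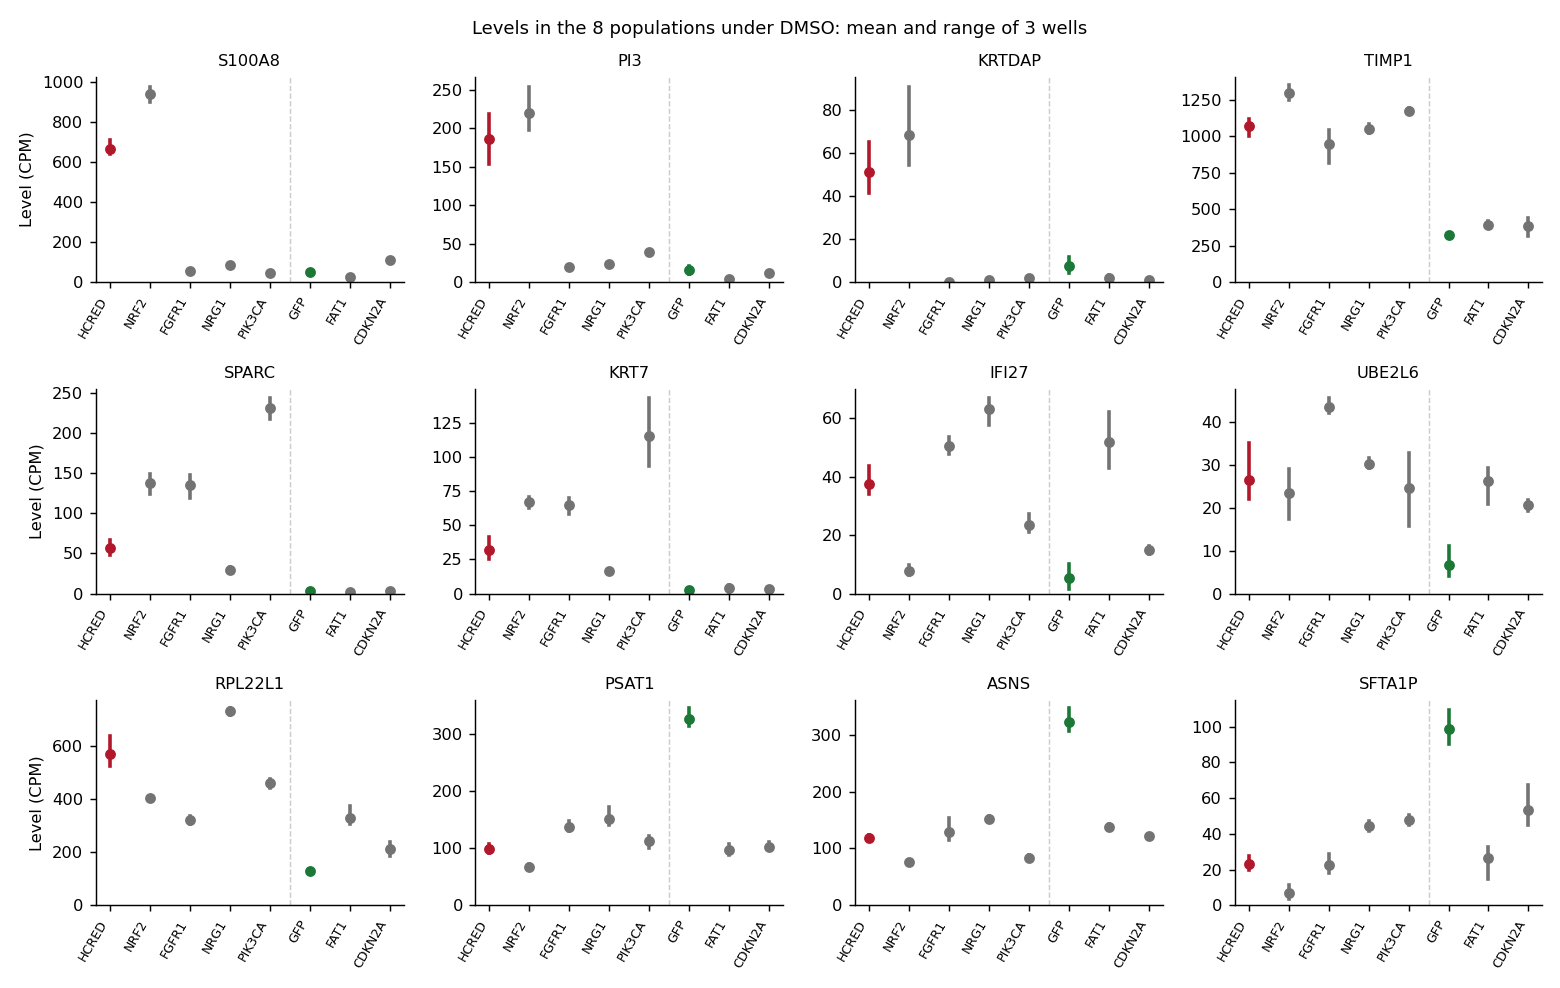
Levels of 12 genes in the 8 populations under DMSO, in CPM with TMM factors on linear axes that start at 0; dots are means and lines the range of 3 wells, with HcRed in red, GFP in green and a dashed line between overexpression and knockout types. S100A8, PI3 and KRTDAP are high in HcRed and NRF2, TIMP1, SPARC and KRT7 are low in the 3 populations at the right, and PSAT1, ASNS and SFTA1P are highest in GFP.

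The same populations were also grown with 3 chemicals, in wells that the DMSO comparison did not use. These were cigarette smoke condensate (CSC, 24.0 µg/ml), the tobacco nitrosamine NNK (490.0 µM) and benzo(a)pyrene (BaP, 173.0 µM), a polycyclic hydrocarbon of smoke. GFP and HcRed differed at 1008 of 10689 genes (9.43%; 4.98% higher and 4.45% lower) under CSC, 833 of 10508 (7.93%; 3.47% higher and 4.45% lower) under NNK and 967 of 11040 (8.76%; 3.9% higher and 4.86% lower) under BaP. The BaP comparison had 3 GFP samples and 2 HcRed samples, 1 of them the sum of a pair of wells that the labels do not describe as separate cultures. Of the 1202 genes called under DMSO, 691 were called in the same direction under CSC (57.5% of the DMSO list and 68.6% of the CSC list), 560 under NNK (46.6% and 67.2%) and 669 under BaP (55.7% and 69.2%). Called or not, 97.0%, 95.8% and 96.1% of those tested had the same sign. Genes called in opposite directions were HIST1H4C under CSC, RPLP2 under NNK, and EMP1 and FTL under BaP. Over DMSO, CSC and NNK together, 479 genes were called in 1 direction, 231 higher and 248 lower, which is 4.80% of the 9979 genes tested in all 3.

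S100A8 was lower in GFP by -4.12, -3.84 and -3.91 on the log2 scale under CSC, NNK and BaP, close to its -3.76 under DMSO. PSAT1 was higher by 1.59, 1.67 and 1.65. SPARC was lower by -3.44, -4.40 and -3.36, and IFI27 by -2.30, -2.56 and -2.08. ISG15 was at -0.04 under CSC (adjusted p = 0.974) and -0.81 under NNK (adjusted p = 0.207), so its call did not recur there. KRT5 was not called under any of the chemicals, with log2 fold changes of 0.11, -0.14 and -0.20.

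The difference between chemicals was tested with an interaction term over the 18 wells of DMSO, CSC and NNK. It was called for 3 of 10975 genes (0.0273%) between CSC and DMSO and for 1 (0.00911%) between NNK and DMSO, while 561 and 689 genes had an unadjusted p under 0.05. The edgeR test called 2 and 5 genes and DESeq2 1 and 0. TIMP1 was among the 3, with a gap of -2.26 under CSC against -1.72 under DMSO. Leaving out 1 well gave 0 to 4 genes between CSC and DMSO. The count was 0 without HcRed well 1, HcRed well 2 or GFP well 1 under DMSO, or without HcRed well 3 or GFP well 3 under CSC, and 1 without GFP well 2 under DMSO or HcRed well 2 under CSC. Between NNK and DMSO it was 0 to 26, with 26 without GFP well 1 under NNK, 2 without HcRed well 1 under DMSO or HcRed well 2 or GFP well 2 under NNK, and 0 without 10 of the other wells.

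**Figure D4:**
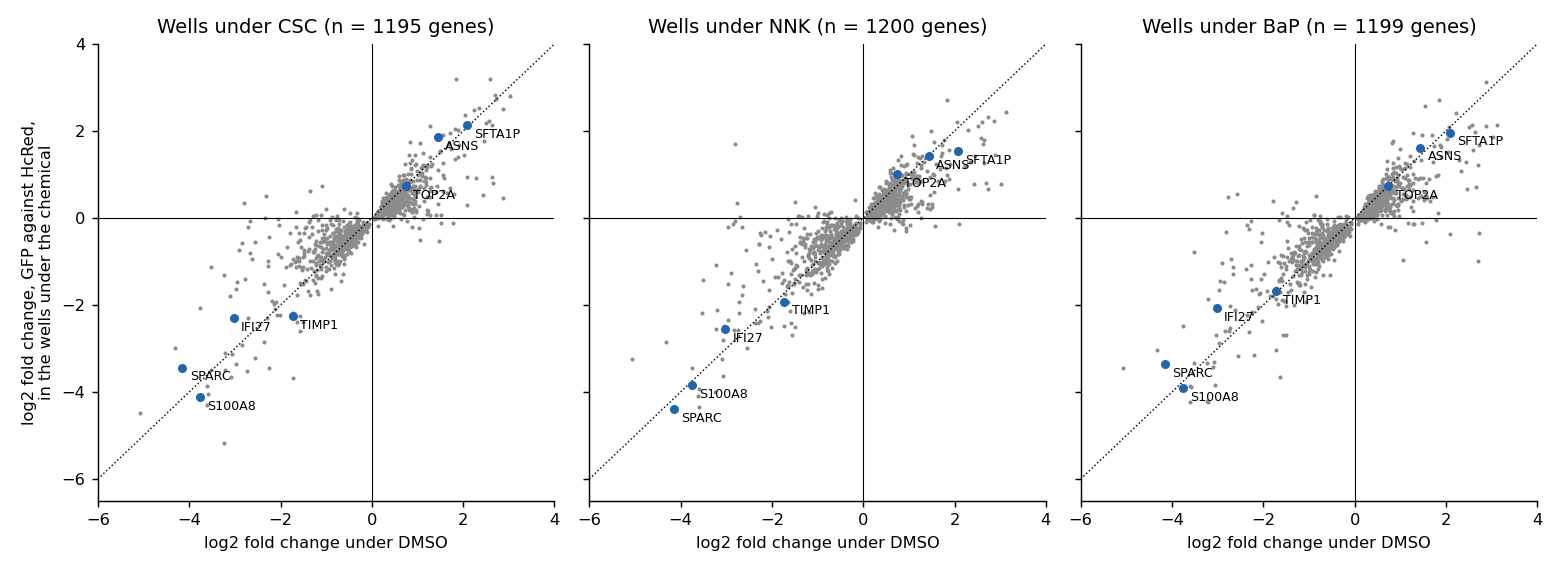
Log2 fold changes of GFP against HcRed for the genes called under DMSO, with the DMSO value on the horizontal axis and the value in wells under CSC, NNK or BaP on the vertical axis; each grey dot is a gene, blue dots are named genes and the dotted line marks equal values. Most dots lie in the lower left and upper right (97.0% under CSC, 95.8% under NNK and 96.1% under BaP), and genes were chosen by their DMSO value.

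Genes lower in GFP were unevenly spread over the genome. Of 40 chromosome arms with at least 50 tested genes, 16p had the lowest median log2 fold change, -0.67, with 43 genes lower and 1 higher of 222. On 4q the median was -0.42, with 54 lower and 4 higher of 272, and on 20q it was -0.41, with 43 lower and 3 higher of 196. These arms were chosen after their values were seen. Together they held 25.9% of all genes called lower and 6.36% of the tested genes with a position. Among the lower genes named above, RPS2, RPS15A, NDUFB10, ALDOA and PPL lie on 16p. PI3 and SLPI lie on 20q and AREG, DDX60 and ANXA5 on 4q. At the other end, 4p and 19q both had a median of 0.28, with 11 higher and 1 lower of 127 genes and 34 higher and 5 lower of 396. They were followed by 6p (median 0.27, 48 higher and 4 lower of 340) and 9q (median 0.25, 51 higher and 1 lower of 318).

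The 3 arms had the same order in separate wells. The median of 16p was -0.68 under CSC, -0.67 under NNK and -0.73 under BaP. That of 4q was -0.51, -0.46 and -0.45, and that of 20q was -0.39, -0.33 and -0.32. The arm 22q lay below 20q under NNK and BaP, at -0.35 and -0.39, and above it under DMSO, at -0.31. S100A8 on 1q, TIMP1 on Xp, SPARC on 5q and KRT7 on 12q lie on arms whose medians were 0.07, 0.15, -0.09 and -0.11, so their differences were far larger than those of their arms. No DNA measurement was used here.

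**Figure D5:**
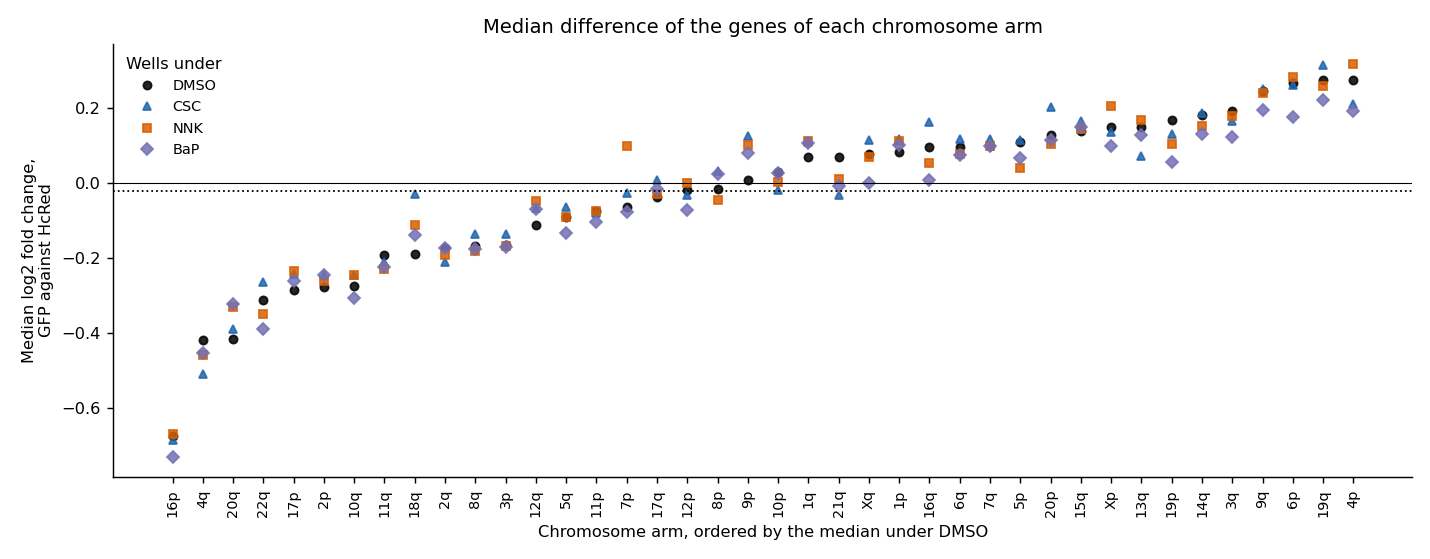
Median log2 fold change of GFP against HcRed for the tested genes of each of 40 chromosome arms, under DMSO (black circles), CSC (blue triangles), NNK (orange squares) and BaP (purple diamonds), ordered by the DMSO value; the dotted line is the median of all genes with a position, -0.02. The arms 16p, 4q and 20q lie lowest, at -0.67, -0.42 and -0.41 under DMSO.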

How the data were processed

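Counts of UMIs per gene were deposited by the authors, 1 file per well. Libraries were prepared by SCRB-seq and, according to the submitters' processing notes and the study's methods, reads were aligned to RefSeq hg19 transcripts with BWA 0.7.10. The counts are not normalized. Genes with a mean count above 1 in the wells fitted were tested with limma 3.58.1 (limma-voom, two-sided, TMM factors from edgeR 4.0.16, R 4.3.3), with Benjamini-Hochberg adjustment over all genes tested and a threshold of 0.05. Only the wells compared entered a fit, except that the interaction fit held 18 wells. Levels are CPM with TMM factors over the 24 DMSO wells. Totals were 1168645 to 1364142 in the 6 wells and 752338 to 1329508 in the 18 further GFP and HcRed wells. Pairs of wells of 1 group differed by more than sampling noise (chi-square per degree of freedom 1.173 to 1.343), so none was merged among the 6. Counting intervals are exact at 95% and cover counting error only. An exact permutation test of 3 against 3 wells cannot give a p below 0.1, so single values were tested only in the fit across all genes. Positions (hg19, from the GENCODE annotation lifted to that build) were found for 93.1% of listed genes, 1525 through older symbols.

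The comparison and the gene lists were chosen with earlier results of these data known. Genes were named by rule: S100A8 and TIMP1, the 12 higher and 12 lower genes with the largest change among those called, without overlap and with a mean of at least 20 CPM, and in each list up to 3 called members with at least 10 CPM and the most abundant member not called. Other genes named were chosen after their values were seen, and some genes that the rule names are not reported here. The fits were tested on simulated data. Replicate numbers do not pair the wells: the 9 correlations of same-numbered wells ran from -0.04 to 0.04. Alternatives were edgeR and DESeq2 1.42.0 tests, other scalings and filters, a replicate block, further wells in the fit and leaving out each well.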

Additional observations from a re-analysis of the deposited data

Results flagged for a closer look

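For 4 genes the difference between GFP and HcRed itself differed between a chemical and DMSO, by the interaction term of limma-voom. TIMP1 was lower in GFP under DMSO and lower still under CSC (difference of log2 fold changes -0.56, SE 0.10, adjusted p = 0.00545). MT1X behaved likewise (-0.44, SE 0.08, adjusted p = 0.0023), with -0.18 under DMSO and -0.59 under CSC. HIST1H4C, a replication-dependent histone gene, was higher in GFP under DMSO (0.13) and lower under CSC (-0.19), a difference of -0.35 (SE 0.07, adjusted p = 0.0156). Its call under DMSO was lost without GFP well 1 (adjusted p = 0.128) or GFP well 2 (adjusted p = 0.154), with DESeq2 (adjusted p = 0.064), with library totals alone (adjusted p = 0.147) and in the fit over 24 wells (adjusted p = 0.225). FDPSP2, a pseudogene whose reads may be shared with its parent gene, did not pass the test under DMSO (0.14, adjusted p = 0.881) and fell in GFP under NNK (-3.38), a difference of -3.55 (SE 0.71, adjusted p = 0.0486). Its levels were low, at 9.17, 4.14 and 5.34 CPM in the HcRed wells and 6.82, 5.81 and 6.47 CPM in the GFP wells under DMSO.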

How the results depend on the processing

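The count of 1202 genes was 659 with DESeq2, 2553 in a fit with chemical as a covariate over more wells, and 271 when a log2 change of at least 1 was asked for. Under CSC, NNK and BaP, DESeq2 called 552, 426 and 438, and 280 genes were called under DMSO, CSC and NNK in 1 direction by DESeq2 in place of 479. Leaving out 1 well gave 913 to 1020 genes under DMSO, 728 to 883 under CSC, 637 to 779 under NNK, 624 to 849 under BaP, 429 to 447 over the 3, and 227 to 241 list members in all. Under BaP, leaving out an HcRed sample left 1, which was assumed to vary like the GFP samples. The interaction between CSC and DMSO was called for 1 gene with DESeq2, 0 without the filter on low counts and 0 to 4 without 1 well. That between NNK and DMSO was called for 5 genes with edgeR, 0 with DESeq2, 0 with median-ratio factors, 3 with library totals alone, 0 without the filter, 4 with the replicate block and 0 to 26 without 1 well. Since the replicate numbers only name the wells, the block is given here alone: 1237 genes under DMSO, 904 under CSC, 992 under NNK, 3 for the interaction of CSC with DMSO and 266 list members. Under DMSO 2 of 6 wells correlated best with the well of their own number, and 0 of 6 under CSC and under NNK. No block could be fitted under BaP. The median of 16p was -0.71 to -0.65 without 1 well, that of 4q -0.46 to -0.40 and that of 20q -0.44 to -0.35, and with genes of a mean count above 20 that of 16p was -0.70. Of 784 counts of list members under alternatives, 73 moved by more than 1.5 times. Of 89 called genes examined singly, 83 kept the call in every alternative that gave them an adjusted p, and none changed sign. Alternatives without an adjusted p for a gene were left out and not counted as lost calls, which left 1150 values. FDPSP2, which was not called, changed sign without HcRed well 2 (-0.096), and was 0.43 without HcRed well 1. Leaving out arms 16p, 4q and 20q was chosen after seeing the data. Depth limits the genes near 0 in GFP, for which ratios carry wide counting intervals.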
